A study of Homo sapiens with 22 samples.

Results

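OS-LM1 and 786-M1A are metastatic cell lines of human clear cell renal carcinoma, and the comparison reported here sets one against the other across all genes. The members were the libraries whose titles name the unmodified OS-LM1 line (2 libraries) or the unmodified 786-M1A line (2 libraries), 4 of the 22 libraries in all. The comparison asks how far the transcriptomes of separately derived metastatic lines differ. OS-LM1 is known from published work as a lung-metastatic derivative of the OS-RC-2 line, and 786-M1A as a metastatic derivative of the 786-O line. Both groups were untreated and carried no CRISPRi construct, and the labels describe each line as a renal cancer cell line. Total RNA came from cultures in RPMI with 10% FBS, and poly(A) RNA was made into libraries with a stranded kit. The 2 libraries of unmodified 786-O entered the fit for their share in the estimate of spread, and their values are given beside those of the metastatic lines. Each group stands for 1 cell line grown in culture, without stroma or immune cells. The labels do not say that the libraries of a line came from separate cultures, so the p-values measure only the spread between these libraries, which may be technical.

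Clear cell renal carcinoma arises from tubule epithelium of the kidney and usually loses VHL, the ubiquitin ligase subunit that marks the hypoxia-inducible factors HIF-1 alpha (HIF1A) and HIF-2 alpha (EPAS1) for destruction. PAX8 and PAX2, transcription factors of kidney development, stay expressed in most such tumours. 786-O is a widely used VHL-deficient line of this cancer, and metastatic derivatives were selected from it and from OS-RC-2 by passage through mice.

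The libraries held 25800964 and 15612816 expected counts in OS-LM1, against 52706490 and 49301935 in 786-M1A, and 39698973 and 41805996 in 786-O. The libraries of a line stood closest to each other, with a median absolute difference in log2 expression of 0.235 within OS-LM1, against 0.081 within 786-M1A. Between the lines that median was 0.569 to 0.733, so the OS-LM1 libraries agreed less well with each other than the 786-M1A libraries did, and both differed far less within a line than between lines. Reads in OS-LM1 came from shorter genes, with a mean annotated length of 3617 and 3391 bases in OS-LM1, against 3929 and 3982 bases in 786-M1A. The fold changes followed gene length: the median log2 fold change was 0.49 in the shortest of 10 equal groups of tested genes by length and -0.33 in the longest. The same slope appeared inside OS-LM1, where replicate 2 minus replicate 1 had medians of 0.15 and -0.25 in those groups, against -0.02 and 0.06 in 786-M1A. With a term for gene length the lines' medians in those groups were 0.16 and 0.1, and the part that length plays in single genes was not tested.

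**Figure D1:**
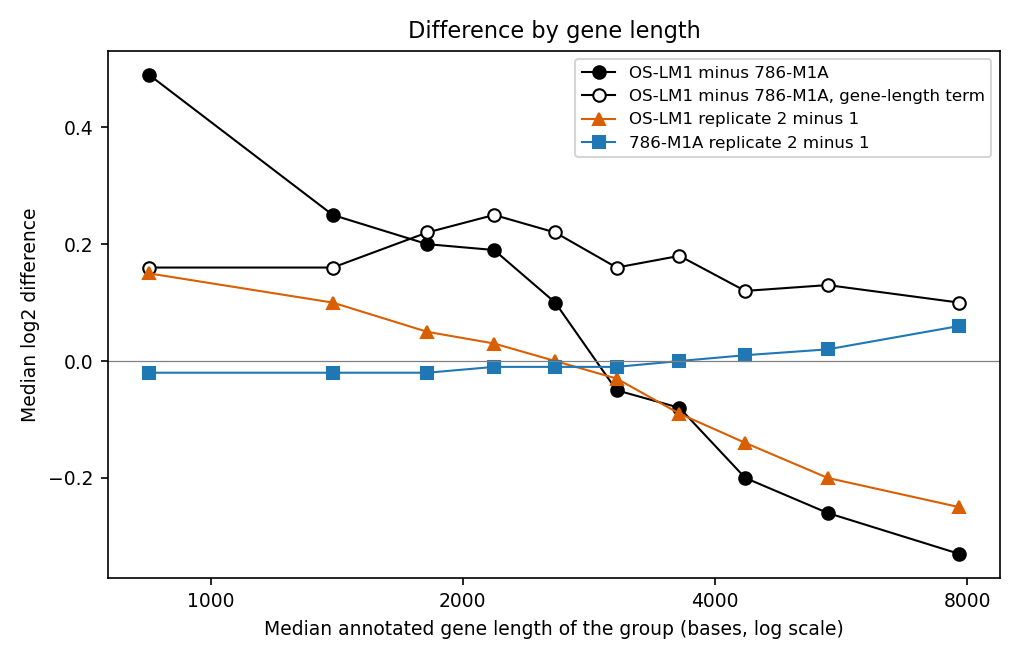
Median log2 difference (vertical axis) in 10 equal groups of the tested genes by annotated length (horizontal axis, median length in bases, log scale). Filled circles show OS-LM1 minus 786-M1A in the fit, open circles the same with a gene-length term, triangles OS-LM1 replicate 2 minus replicate 1, and squares 786-M1A replicate 2 minus replicate 1; the filled circles run between 0.49 at the short end and -0.33 at the long end.

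The lines differed in most of what they expressed. Of 16354 genes tested, 11232 (68.7%) were called at an adjusted p under 0.05 by edgeR's quasi-likelihood test with Benjamini-Hochberg adjustment, 5625 higher in OS-LM1 (34.4%) and 5607 lower (34.3%). A log2 fold change of at least 1 in size accompanied 6128 of the 11232 calls, 3640 higher and 2488 lower. As shares of the 16354 genes tested these were 37.5%, 22.3% and 15.2%. The median log2 fold change over all tested genes was 0.04. That even split depended on scaling: upper-quartile factors moved the median of all genes to 0.29 and gave 7093 higher against 4293 lower, and a term for gene length moved it to 0.17 and gave 6481 higher against 4921 lower. Fold changes below are on the trimmed-mean (TMM) scale, as log2 of OS-LM1 over 786-M1A with the standard error of the fit, and levels are CPM, counts scaled to 1000000 in each TMM-scaled library, given for replicate 1 and replicate 2. Every gene described as higher or lower passed that test unless its p is given, and a list's counts are to be read against the 34.4% and 34.3% of all genes. A range after a list's median covers the medians under the 18 alternatives to this fit, other scalings, filters and tools and each library left out; limma on log2(TPM + 1) shrinks low genes by construction.

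**Figure D2:**
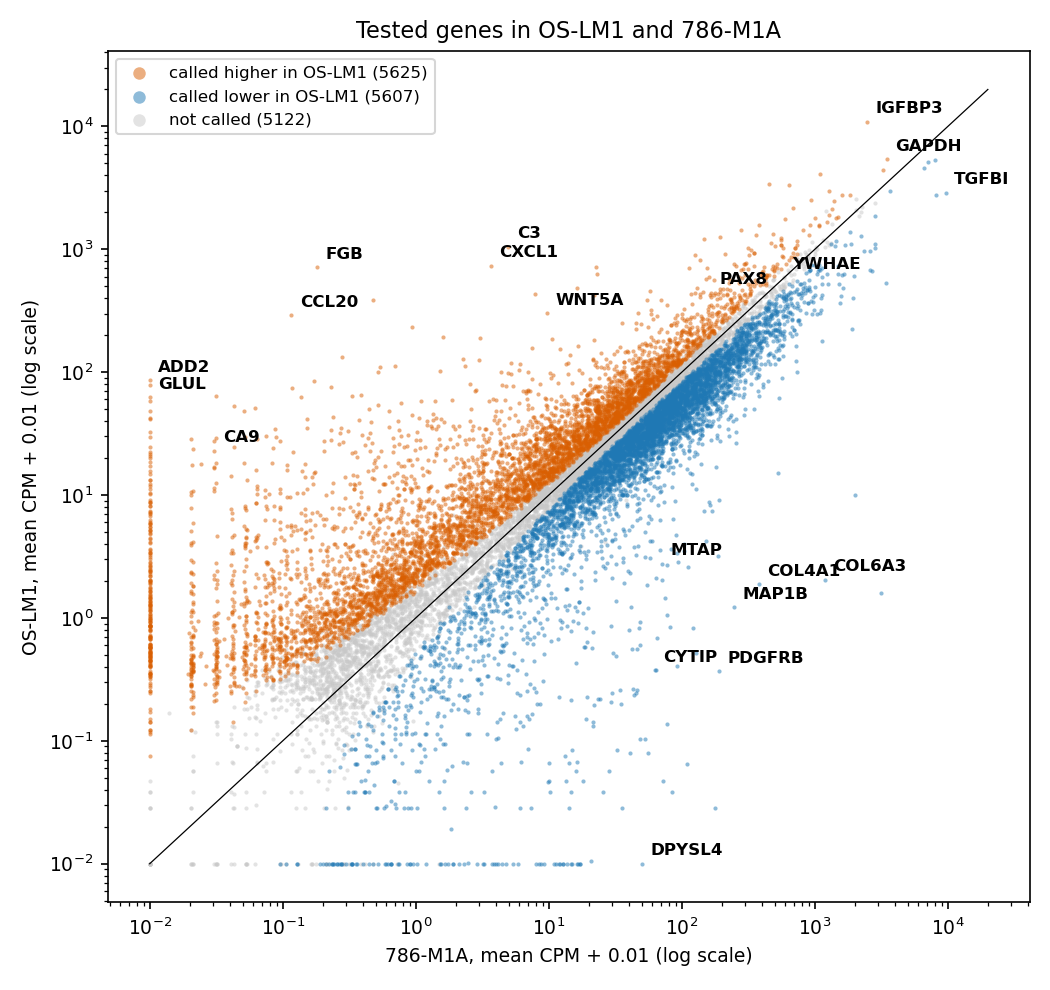
Mean CPM of each tested gene in OS-LM1 (vertical axis) against 786-M1A (horizontal axis), both on log scales after adding 0.01. Orange points are genes called higher in OS-LM1 (5625), blue points those called lower (5607) and grey points the rest; labelled genes are described in the text, and CCL20, FGB and GLUL lie far above the diagonal while COL6A3, MAP1B and PDGFRB lie far below it.

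Genes detected in one line alone were few. A gene counted as such with a mean of at least 5 CPM in one line and at most 3 expected counts over both libraries of the other. There were 72 in OS-LM1, 0.644% of the 11177 genes at that level, and 46 in 786-M1A, 0.431% of 10672. The OS-LM1 set was 109 without 786-M1A replicate 2, and the 786-M1A set was 71 without OS-LM1 replicate 1. The parental line stood beside 786-M1A in both sets: of the 72 genes, 37 had at most 3 counts in 786-O and 2 reached 5 CPM there, while of the 46, 37 reached 5 CPM in 786-O.

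Among the genes of OS-LM1 were several enzymes of amino acid and purine metabolism. GLUL, glutamine synthetase, had 66.7 and 59.2 CPM in OS-LM1, against 0 counts in 786-M1A, and 0 counts in 786-O, which made it at least 1996-fold higher in OS-LM1 at a floor of 3 counts over the 786-M1A group. PHGDH, the first enzyme of serine synthesis, had 21.2 and 23.9 CPM in OS-LM1, against 0 counts in 786-M1A, at least 697-fold higher, and also 0 counts in 786-O. GDA, guanine deaminase, had 67.5 and 49.4 CPM in OS-LM1, against 0 counts in 786-M1A, at least 1889-fold higher. All 3 were off in 786-M1A and on in both OS-LM1 libraries. Beyond metabolism, the set held ADD2, a membrane skeleton protein (beta-adducin), at 109 and 62 CPM in OS-LM1, against 0 counts in 786-M1A and at least 2832-fold higher. SFRP2, a secreted WNT antagonist, was at least 1493-fold higher with 44 and 53.3 CPM in OS-LM1, against 0 counts in 786-M1A. ADORA2A, an adenosine receptor, was at least 1299-fold higher with 41.7 and 41.3 CPM in OS-LM1, against 0 counts in 786-M1A. SLC16A9, a monocarboxylate transporter family member, had 34.1 and 30.7 CPM in OS-LM1, against 0 counts in 786-M1A, and TMEM98, a membrane protein, had 63.8 and 63.5 CPM in OS-LM1, against 0.0206 and 0.022 CPM in 786-M1A. INSR, the insulin receptor, had 18.2 and 18.9 CPM in OS-LM1, against 0 counts in 786-M1A, at least 578-fold higher, with 0.0252 and 0 CPM in 786-O. TEKT4P2, a pseudogene with 69.6 and 87.2 CPM in OS-LM1, against 0 counts in 786-M1A, resembles other tektin copies, so its reads may be shared.

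Fibrinogen genes belonged to the same pattern. FGB, the fibrinogen beta chain, had 760.5 and 663 CPM in OS-LM1, against 0.262 and 0.0782 CPM in 786-M1A, a log2 fold change of 11.92 ± 0.28, and 2.4 and 2.1 CPM in 786-O. FGG, the gamma chain, had 30 and 19.4 CPM in OS-LM1, against 0 counts in 786-M1A, at least 808-fold higher. FGA, the alpha chain, was looked up after these values were seen and had 10.2 and 10.3 CPM in OS-LM1, against 0 counts in 786-M1A. The chains of one secreted clotting protein were thus all higher in OS-LM1, while the hepatocyte genes TTR and ALB were too low in all libraries to be tested. FGB, FGA and FGG are neighbouring genes of one cluster on chromosome 4, so they are not independent. SFRP2, given above, lies close to them. Of 10 lung epithelium and hepatocyte genes 3 passed the filter on low counts, 2 called higher and 0 lower. With a minimum count of 50 the count higher was 1. The 10 genes summed to 762 and 666 CPM in OS-LM1, close to the level of FGB alone.

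Genes on in 786-M1A and off in OS-LM1 were for the most part on in 786-O as well. DPYSL4, of the dihydropyrimidinase-like family, had 0 counts in OS-LM1, against 50.3 and 50.6 CPM in 786-M1A, at least 746-fold lower in OS-LM1, and 37.9 and 37.5 CPM in 786-O. SLC17A9, the vesicular nucleotide transporter, had 1 expected count in OS-LM1, with 0.0373 and 0 CPM in OS-LM1, against 191 and 163 CPM in 786-M1A, and a ratio of 7883 (95% counting interval 1415 to 311365) in favour of 786-M1A. MPDZ, a multiple PDZ scaffold protein, had 0 counts in OS-LM1, against 17.5 and 16.8 CPM in 786-M1A, and STS, steroid sulfatase on the X chromosome, had 0 counts in OS-LM1, against 15 and 14.9 CPM in 786-M1A. RGS10, a regulator of G protein signalling, had 0 counts in OS-LM1, against 15.8 and 16.6 CPM in 786-M1A, and CHST10, a carbohydrate sulfotransferase, had 0 counts in OS-LM1, against 14.6 and 14.6 CPM in 786-M1A. Each of these was at 0 or 1 count in OS-LM1, and 786-O resembled 786-M1A. TCF4, a basic helix-loop-helix factor, had 0.0745 and 0.0644 CPM in OS-LM1, against 55.1 and 57 CPM in 786-M1A, with 29.9 and 32.1 CPM in 786-O. TSPAN5, a tetraspanin, had 0.0745 and 0 CPM in OS-LM1, against 74.1 and 71.5 CPM in 786-M1A. FAM45A and SRGAP2B also met the rule, but near-identical copies elsewhere in the genome may share their reads. FLNC, filamin C, an actin cross-linker picked out after its values were seen, had 1.57 and 1.6 CPM in OS-LM1, against 3170 and 3131 CPM in 786-M1A, a log2 fold change of -10.96 ± 0.15, with 1397 and 1305 CPM in 786-O.

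Transcription factors of kidney identity were expressed in both lines and differed in level. PAX8 had 388 and 499 CPM in OS-LM1, against 175 and 159 CPM in 786-M1A, a log2 fold change of 1.41 ± 0.14 and an adjusted p of 5.42e-05. PAX2 had 41 and 56.1 CPM in OS-LM1, against 4.12 and 3.86 CPM in 786-M1A, a log2 fold change of 3.60 ± 0.17, and 24.2 and 24.4 CPM in 786-O, so 786-M1A was the low line of the 3. HNF4A, a factor of proximal tubule and liver, had 3.09 and 2.45 CPM in OS-LM1, against 0 counts in 786-M1A, at least 88.9-fold higher. Against these, WT1, the Wilms tumour factor of the nephron progenitor and podocyte, had 1.08 and 0.741 CPM in OS-LM1, against 46.7 and 49.6 CPM in 786-M1A, a log2 fold change of -5.67 ± 0.17. LHX1, a nephron patterning factor, was not called at 15.1 and 17.4 CPM in OS-LM1, against 15.9 and 13.9 CPM in 786-M1A. In all, 10 of 17 tested members were called higher and 5 lower, with a median log2 fold change of 0.67 (0.53 to 1.00 over the alternatives). Among the 17, 1 had at most 3 counts in 786-M1A and in 786-O, so it passed the filter through OS-LM1 alone.

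Transporters and brush-border proteins of the tubule were mostly higher in OS-LM1. ANPEP, the brush-border aminopeptidase N, had 437 and 410.1 CPM in OS-LM1, against 21.7 and 21.7 CPM in 786-M1A, a log2 fold change of 4.29 ± 0.11. SLC3A1, a subunit of the cystine transporter, had 15.8 and 11.4 CPM in OS-LM1, against 0.532 and 0.419 CPM in 786-M1A. FXYD2, the gamma subunit of the sodium pump, had 29.7 and 48.3 CPM in OS-LM1, against 0.412 and 0.485 CPM in 786-M1A, with 11.2 and 11.7 CPM in 786-O. PDZK1, a scaffold of apical transporters, had 163 and 156 CPM in OS-LM1, against 33.3 and 34.8 CPM in 786-M1A, but 382 and 405 CPM in 786-O, so its difference was set against a low 786-M1A level. In the other direction, MME, neprilysin, had 14 and 8.38 CPM in OS-LM1, against a mean of 127 CPM in 786-M1A, with 18.9 and 19.8 CPM in 786-O, and 786-M1A was the line that stood apart. SLC13A3, a dicarboxylate transporter, had 0 counts in OS-LM1, against 8.71 and 9.54 CPM in 786-M1A, at least 135-fold lower, and CDH6, the kidney cadherin, had 98.1 and 76.4 CPM in OS-LM1, against 285 and 310.2 CPM in 786-M1A. Of the list, 11 of 21 tested members were called higher and 4 lower, with a median log2 fold change of 1.03 (0.33 to 1.27 over the alternatives).

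Markers of other cell types were sparse. Of 16 leukocyte genes 6 passed the filter on low counts, 4 higher and 1 lower, among them CORO1A at 3.81 and 4.32 CPM in OS-LM1, against 1.25 and 0.727 CPM in 786-M1A. PTPRC and CD3E, which define leukocytes and T cells, were too low to be tested. Of 10 endothelial genes 4 passed the filter, and the count higher was 3, but 1 without OS-LM1 replicate 2 or 786-M1A replicate 2 and 0 without 786-M1A replicate 1. VWF and CDH5 were not testable, and KDR had 0.273 and 0.245 CPM in OS-LM1, against 0.368 and 0.905 CPM in 786-M1A. Of 11 fibroblast and pericyte genes 4 passed the filter, 1 higher and 3 lower. COL1A1, a fibrillar collagen, was higher at 17.9 and 19.6 CPM in OS-LM1, against 4.27 and 4.01 CPM in 786-M1A, and MCAM, a pericyte and melanoma adhesion molecule, was lower at 3.48 and 3.85 CPM in OS-LM1, against 83.7 and 82.3 CPM in 786-M1A. DCN, the stromal proteoglycan decorin, was too low to be tested. The kidney markers PAX8, PAX2 and CDH6 and the epithelial keratin KRT18 were detected in all 6 libraries. In bulk RNA, fewer cells of a type and less RNA per cell cannot be told apart.

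**Figure D3:**
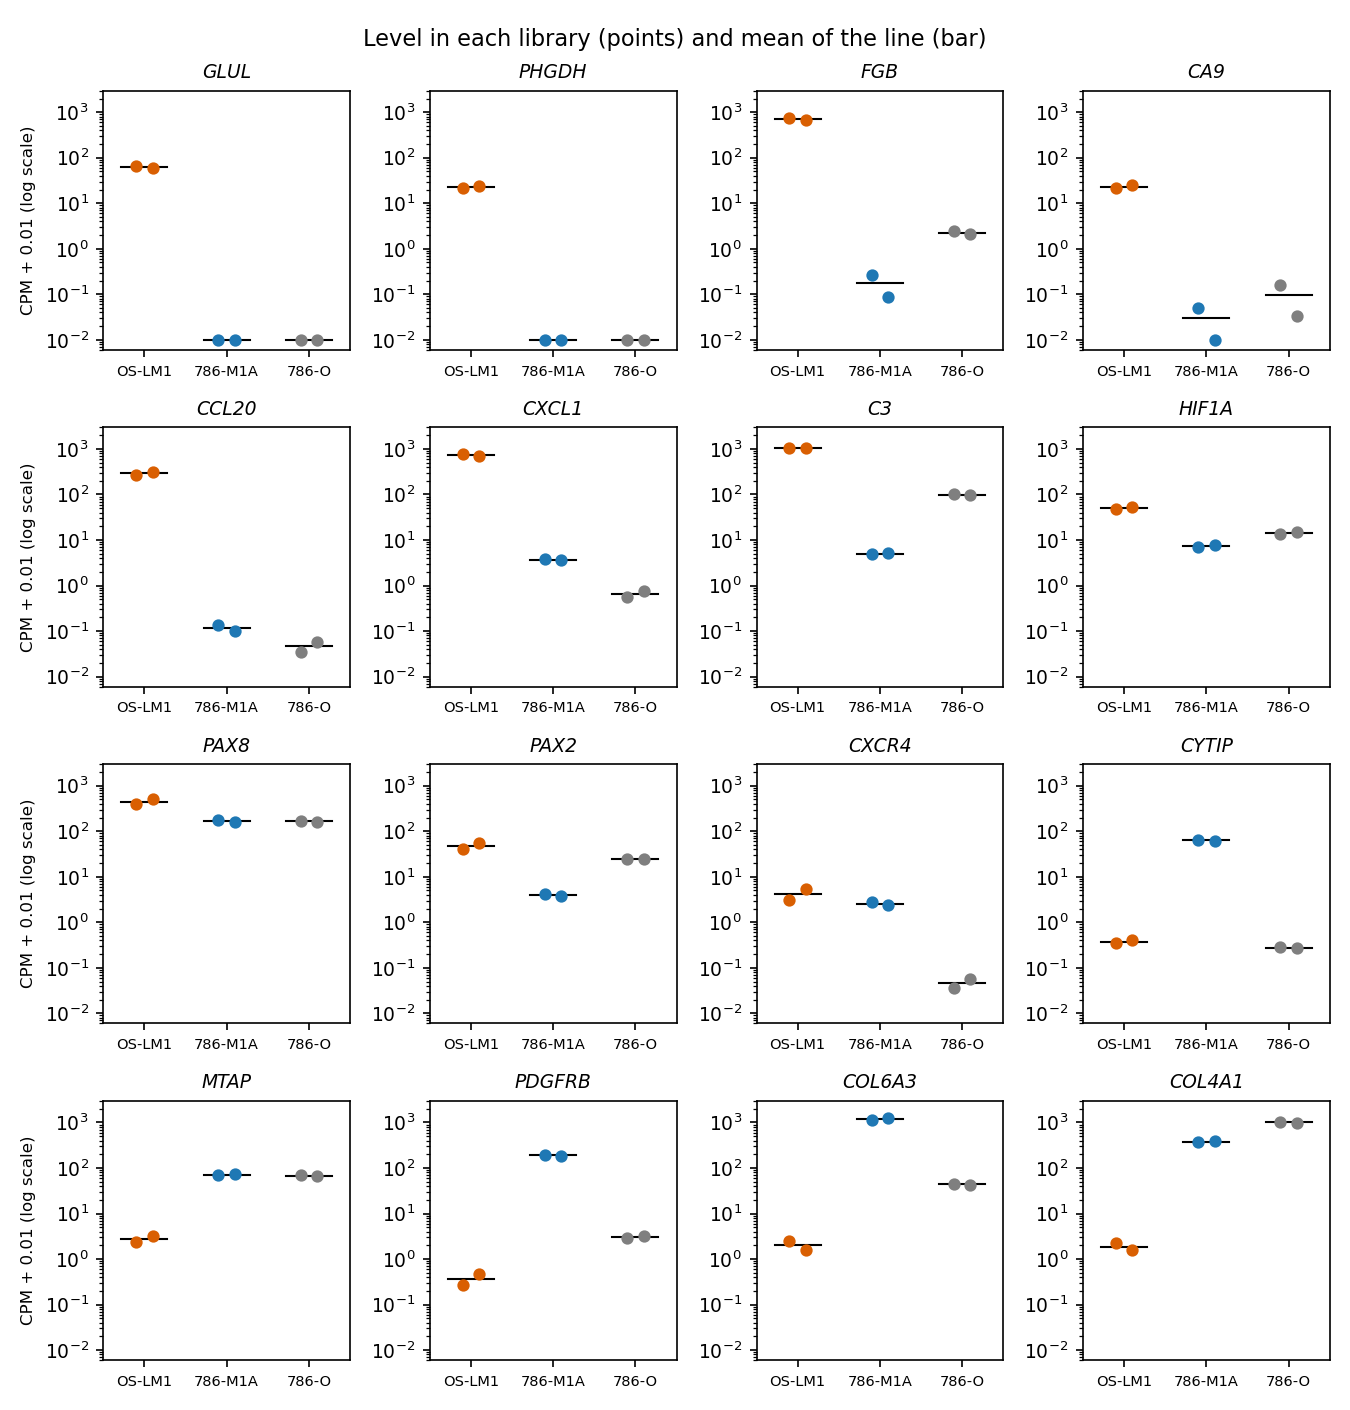
CPM plus 0.01 (vertical axis, log scale) of 16 genes described in the text, 1 panel a gene, with each library a point and the bar the mean of the 2 libraries of a line. Lines run from OS-LM1 to 786-M1A to 786-O; CYTIP is high in 786-M1A alone, with 64.4 and 61.1 CPM, while GLUL, CA9 and CCL20 are high in OS-LM1 alone.

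Targets of NF-kB formed the list with the most one-sided difference in favour of OS-LM1 among those with at least 20 tested members. NF-kB is a family of transcription factors held in the cytoplasm by inhibitors until inflammatory signals release them, and many of its targets are secreted chemokines and cytokines. Of 29 tested members 26 were called higher and the other 3 were not called, with a median log2 fold change of 3.0 (1.81 to 3.29 over the alternatives). Another 3 of the 32 members in the files were not tested, and 2 of the 29 had at most 3 counts in 786-M1A and in 786-O. CCL20, a chemokine that attracts lymphocytes and dendritic cells, had 267 and 317 CPM in OS-LM1, against 0.124 and 0.0882 CPM in 786-M1A, a log2 fold change of 11.38 ± 0.22 and an adjusted p of 4.03e-08. CXCL1, a neutrophil chemokine, had 777 and 697 CPM in OS-LM1, against 3.79 and 3.55 CPM in 786-M1A, a log2 fold change of 7.65 ± 0.17. CCL20 was near absent in 786-M1A, CXCL1 was low there, and both were high in both OS-LM1 libraries. C3, the central complement protein, had 1075 and 1024 CPM in OS-LM1, against 4.84 and 5.09 CPM in 786-M1A, with 102 and 96.6 CPM in 786-O. PTGS2, the inducible prostaglandin synthase, had 1 expected count in 786-M1A, with 30.8 and 26 CPM in OS-LM1, against 0.0206 and 0 CPM in 786-M1A. Members chosen after their values were seen behaved alike: IL6, an inflammatory cytokine, had 442 and 428 CPM in OS-LM1, against 7.65 and 8.13 CPM in 786-M1A, CXCL8, a neutrophil chemokine, 698 and 566 CPM in OS-LM1, against 22.2 and 23.6 CPM in 786-M1A, and LIF, a cytokine of the same family as IL6, 792 and 843 CPM in OS-LM1, against 140.3 and 135 CPM in 786-M1A. The inhibitors that NF-kB itself induces were higher too, with 134 and 150.4 CPM in OS-LM1, against 24.9 and 24.3 CPM in 786-M1A for TNFAIP3 and 99.3 and 112 CPM in OS-LM1, against 42.3 and 42.3 CPM in 786-M1A for NFKBIA, also picked afterwards. BIRC3, an apoptosis inhibitor, was not called at 182 and 124 CPM in OS-LM1, against 120 and 134 CPM in 786-M1A, nor was ICAM1, a leukocyte adhesion receptor, at 154 and 141 CPM in OS-LM1, against 169.7 and 164 CPM in 786-M1A, nor VCAM1 at 67.8 and 52.4 CPM in OS-LM1, against 52.4 and 55.6 CPM in 786-M1A. These 3 members were expressed in every library, and VCAM1 was named only to complete the uncalled members of the list. The count of members lower was 1 with limma on log2 TPM and without OS-LM1 replicate 1.

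The promoter windows of these genes are shown because letters typical of NF-kB sites lie in many of them. The pattern searched was GGGNNTTTC, a shortened form of the NF-kB consensus chosen after the levels were seen, on both strands in RefSeq windows of 250 bases before to 50 bases after each annotated start (GRCh38.p14). It occurred in 12 of the 22 tested list members that had a window (54.5%), in 791 of 12438 tested genes with one (6.36%), and in 1577 of all 27195 genes of the table (5.8%), with a gene of several starts counted where any window held it. The list was written from genes already known as NF-kB targets, so its higher share describes how the list was made, not these lines. Capitals mark the match, which on the minus strand of the window reads as its reverse complement, and the number after each gene is the position of the match from the start site.
CXCL1, chr4:73869143-73869442, plus strand, match at -79: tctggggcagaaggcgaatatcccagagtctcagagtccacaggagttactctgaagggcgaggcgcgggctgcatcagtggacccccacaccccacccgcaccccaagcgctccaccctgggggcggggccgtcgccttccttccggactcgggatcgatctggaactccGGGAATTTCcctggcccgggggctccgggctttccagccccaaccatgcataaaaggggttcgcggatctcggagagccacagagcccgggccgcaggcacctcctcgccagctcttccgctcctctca
CCL20, chr2:227813592-227813891, plus strand, match at -78: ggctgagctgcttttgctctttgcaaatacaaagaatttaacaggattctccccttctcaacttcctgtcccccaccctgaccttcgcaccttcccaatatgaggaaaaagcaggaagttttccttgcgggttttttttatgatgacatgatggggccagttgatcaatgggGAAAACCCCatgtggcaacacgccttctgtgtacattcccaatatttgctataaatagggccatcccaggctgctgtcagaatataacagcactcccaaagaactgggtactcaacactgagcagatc
IL6, chr7:22726950-22727249, plus strand, match at -73: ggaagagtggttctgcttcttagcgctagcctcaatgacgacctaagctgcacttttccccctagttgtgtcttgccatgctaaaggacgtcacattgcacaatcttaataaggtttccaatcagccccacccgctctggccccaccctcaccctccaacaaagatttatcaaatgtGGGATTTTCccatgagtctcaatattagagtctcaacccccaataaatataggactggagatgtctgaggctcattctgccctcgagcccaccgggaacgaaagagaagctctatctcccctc
CXCL5, chr4:73998628-73998927, minus strand, match at -91: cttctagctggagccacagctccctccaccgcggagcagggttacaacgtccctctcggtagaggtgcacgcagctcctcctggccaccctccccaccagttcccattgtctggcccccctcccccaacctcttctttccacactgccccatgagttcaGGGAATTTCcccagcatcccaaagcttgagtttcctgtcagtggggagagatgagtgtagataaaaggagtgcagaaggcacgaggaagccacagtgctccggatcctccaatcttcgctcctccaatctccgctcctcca
BIRC3, chr11:102317234-102317533, plus strand, match at -198: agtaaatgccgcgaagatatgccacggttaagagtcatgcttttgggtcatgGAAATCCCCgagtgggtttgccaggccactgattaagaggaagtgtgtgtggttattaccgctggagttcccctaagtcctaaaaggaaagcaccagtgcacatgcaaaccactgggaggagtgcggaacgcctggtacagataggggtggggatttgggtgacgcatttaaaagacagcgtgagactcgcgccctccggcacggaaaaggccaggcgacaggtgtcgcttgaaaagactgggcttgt
CXCL1 and CXCL5 share the same 9 letters, GGGAATTTC, at similar distances from their starts. They are related genes of one cluster on chromosome 4 with CXCL2 and CXCL3, also named after their values were seen, which hold those letters too, so these 4 of the 12 members with a match are not independent. CXCL5, a neutrophil chemokine chosen with IL6 after its values were seen, had 552 and 417 CPM in OS-LM1, against 16.3 and 16.2 CPM in 786-M1A. BIRC3 holds a match farther from its start and was not called, and the windows of PTGS2 and CXCL8, both higher in OS-LM1, hold none. A match is a description of letters, not a site of binding or a cause of a level, and no match says only that these letters are not in this window.

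Interferon-response genes split. Of the list, 13 of 38 tested members were called higher and 18 lower, with a median log2 fold change of -0.20 (-0.60 to 0.06 over the alternatives). The median was -0.60 without OS-LM1 replicate 1, 0.05 with upper-quartile factors and 0.06 with a gene-length term. IFI27, an interferon-inducible mitochondrial protein, had 92 and 107 CPM in OS-LM1, against 0.433 and 0.595 CPM in 786-M1A, a log2 fold change of 7.59 ± 0.22. OAS2, a sensor of double-stranded RNA, had 8.42 and 5.64 CPM in OS-LM1, against 0.659 and 1.06 CPM in 786-M1A. SAMD9L, an antiviral growth inhibitor, went the other way with 1.85 and 1.82 CPM in OS-LM1, against 49.5 and 59.4 CPM in 786-M1A, a log2 fold change of -4.88 ± 0.16. DDX60, a helicase of antiviral signalling, had 12.1 and 7.82 CPM in OS-LM1, against 42.3 and 46.3 CPM in 786-M1A. The upstream factors STAT2 and IRF1 were not called, with 48.4 and 57 CPM in OS-LM1, against 51.4 and 51.3 CPM in 786-M1A for STAT2.

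Genes of antigen presentation differed in both directions. HLA-B and HLA-C, class I genes that present peptides from inside the cell, were lower in OS-LM1: HLA-B had 73.2 and 78.5 CPM in OS-LM1, against 404 and 406 CPM in 786-M1A and HLA-C had 85.2 and 95.7 CPM in OS-LM1, against 245 and 241 CPM in 786-M1A. HLA-F, a non-classical gene, was higher at 26.2 and 25.9 CPM in OS-LM1, against 6.11 and 7.14 CPM in 786-M1A. NLRC5, the activator of class I genes, was lower at 8.98 and 9.12 CPM in OS-LM1, against 17.1 and 15.8 CPM in 786-M1A, and TAPBP, of the peptide-loading complex, was not called at 244 and 237 CPM in OS-LM1, against 271 and 264 CPM in 786-M1A. In the class I list 3 of 15 tested members were called higher and 8 lower, with a median log2 fold change of -0.45 (-0.62 to -0.19 over the alternatives). In the class II list 5 of 8 tested members were called higher and 3 were not called, and 3 were higher with a minimum count of 50. CD74, the class II invariant chain, had 90.7 and 116 CPM in OS-LM1, against 1.4 and 1.61 CPM in 786-M1A, a log2 fold change of 6.10 ± 0.19. CIITA, the class II activator, was at the edge of detection and not called, with 0.645 and 0.371 CPM in OS-LM1, against 0.497 and 0.287 CPM in 786-M1A. HLA genes are polymorphic near-copies of each other, so their counts in lines of different origin are uncertain.

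Complement genes differed in both directions. The first-component proteases C1R and C1S were higher, C1R at 59.7 and 55.9 CPM in OS-LM1, against 1.03 and 1.12 CPM in 786-M1A and C1S at 40.3 and 39.9 CPM in OS-LM1, against 0.927 and 1.48 CPM in 786-M1A. C5, a terminal component, was lower at 0.186 and 0.228 CPM in OS-LM1, against 23.2 and 24.9 CPM in 786-M1A, and CD55, which protects cells from complement, was lower at 0.261 and 0.171 CPM in OS-LM1, against 18.9 and 19.9 CPM in 786-M1A. Of the list, 7 of 16 tested members were called higher and 5 lower, with a median log2 fold change of 0.50 (0.18 to 0.75 over the alternatives). Members called lower came to 3 with upper-quartile factors and without 786-M1A replicate 1 and with a gene-length term.

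The HIF pathway differed in its alpha subunits. HIF1A had 48.7 and 52.8 CPM in OS-LM1, against 7.07 and 7.76 CPM in 786-M1A, a log2 fold change of 2.77 ± 0.12 and an adjusted p of 6.77e-07, with 13.7 and 15.1 CPM in 786-O. EPAS1 was not called, with 185 and 131 CPM in OS-LM1, against 209 and 206 CPM in 786-M1A, a log2 fold change of -0.39 ± 0.16 and an adjusted p of 0.0527. Per transcript length, EPAS1 averaged 63.4 TPM in OS-LM1 and 88.3 TPM in 786-M1A, and HIF1A averaged 26.2 TPM in OS-LM1 and 4.16 TPM in 786-M1A. EPAS1 was called lower under 8 of the 18 alternatives, with log2 fold changes between -0.67 and -0.16: without OS-LM1 replicate 1 (adjusted p of 2.25e-09), without OS-LM1 replicate 2 (0.0277), with DESeq2 (0.0353), with RLE factors (0.0498), with no filter (0.0107), with limma on both TPM scales (0.0314 and 0.029) and with the crossed block (0.0446). With a gene-length term the difference was -0.02. EPAS1 was the more abundant alpha subunit in both lines, by a smaller margin in OS-LM1. VHL transcripts were higher at 88.1 and 101 CPM in OS-LM1, against 55.9 and 56.4 CPM in 786-M1A, which says nothing of whether the protein works. HIF3A, a further alpha subunit, had 2.38 and 3.64 CPM in OS-LM1, against 0.538 and 0.666 CPM in 786-M1A, and ARNT2, a dimer partner, had 58.1 and 47.3 CPM in OS-LM1, against 16 and 16.3 CPM in 786-M1A. EGLN2, a prolyl hydroxylase that marks HIF for VHL, was higher at 67.3 and 70.5 CPM in OS-LM1, against 29.7 and 31.3 CPM in 786-M1A, although a read-through transcript overlaps it. Of the core list, 6 of 11 tested members were called higher and 4 lower, with a median log2 fold change of 0.55 (0.20 to 0.82 over the alternatives). Calls lower numbered 2 with a gene-length term.

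Target genes of HIF did not move as a block. CA9, a carbonic anhydrase widely used as a marker of HIF-1 activity, had 2 expected counts in 786-M1A, with 21.5 and 24.6 CPM in OS-LM1, against 0.0412 and 0 CPM in 786-M1A, a ratio of 1065 (95% counting interval 294 to 8809.7). NDUFA4L2, a mitochondrial protein induced by hypoxia, had 59.1 and 93.2 CPM in OS-LM1, against 0.371 and 0.0661 CPM in 786-M1A, a log2 fold change of 8.39 ± 0.41. PFKFB4, a regulator of glycolysis, had 62.6 and 87.2 CPM in OS-LM1, against 22.6 and 21.4 CPM in 786-M1A, and HILPDA, a lipid droplet protein, had 77.4 and 102 CPM in OS-LM1, against 23.1 and 24.5 CPM in 786-M1A. NDRG1, a stress-response gene, was lower at 271 and 216 CPM in OS-LM1, against 503 and 463 CPM in 786-M1A, as was TGFA, an EGF receptor ligand and target of HIF-2, at 458 and 352 CPM in OS-LM1, against 777 and 796 CPM in 786-M1A. CCND1, cyclin D1, a HIF-2 target in this cancer, was not called at 1008 and 829 CPM in OS-LM1, against 780.1 and 777 CPM in 786-M1A. Nor was SLC2A1, the glucose transporter GLUT1, with 881 and 681 CPM in OS-LM1, against 813 and 769 CPM in 786-M1A, one of the abundant genes with the smallest difference. Of the hypoxia list, 11 of 29 tested members were called higher and 5 lower, with a median log2 fold change of 0.24 (0.08 to 0.54 over the alternatives). The count higher was 20 with upper-quartile factors and with a gene-length term, 19 without OS-LM1 replicate 2 and 7 without 786-M1A replicate 1.

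Chromosome 9p21 carries the tumour suppressors CDKN2A and CDKN2B with MTAP next to them, and their joint deletion is common in cancer. CDKN2A and CDKN2B had 0 counts in all 6 libraries, so they allow no comparison. MTAP, an enzyme of methionine salvage, had 2.37 and 3.13 CPM in OS-LM1, against 69.1 and 72.7 CPM in 786-M1A, a log2 fold change of -4.72 ± 0.15. DMRTA1, on the far side of CDKN2B, had 0 counts in OS-LM1, against 12.6 and 13.1 CPM in 786-M1A, at least 189.7-fold lower. The neighbourhood did not share one direction: of 15 genes around the pair, these included, 9 were tested, 4 were called higher, 3 lower and 2 were not called. CDKN2B-AS1, an antisense RNA of the locus picked out after its values were seen, was higher at 7.6 and 7.82 CPM in OS-LM1, against 3.49 and 3.48 CPM in 786-M1A, and reads of antisense partners are uncertain because the counting is not known to use strand. Copy number was not measured. Among other renal tumour suppressors, PBRM1, a subunit of a chromatin remodeller, was lower at 45.5 and 29.3 CPM in OS-LM1, against 86 and 87.4 CPM in 786-M1A, and BAP1, a deubiquitinase, was lower at 52.1 and 55.8 CPM in OS-LM1, against 112 and 105 CPM in 786-M1A. Of the list, 3 of 19 tested members were called higher and 11 lower, with a median log2 fold change of -0.48 (-0.55 to -0.01 over the alternatives). With a gene-length term 7 were higher and 8 lower, with a median of -0.01. In the alternatives the higher members were 6 with upper-quartile factors, 5 without OS-LM1 replicate 2 and 7 with a gene-length term.

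Genes tied to metastasis of these lines in earlier work did not share one direction: 1 of 7 tested members were called higher and 3 lower, with a median log2 fold change of -0.06 (-0.47 to 0.21 over the alternatives). The number higher was 3 with upper-quartile factors and 2 with a minimum count of 50 and without OS-LM1 replicate 1 and without OS-LM1 replicate 2 and with a gene-length term. CXCR4, the chemokine receptor of lung homing, was not called, with 3.06 and 5.42 CPM in OS-LM1, against 2.74 and 2.36 CPM in 786-M1A, a log2 fold change of 0.71 ± 0.30 and an adjusted p of 0.0658; in 786-O it had 0.0252 and 0.0473 CPM. Both metastatic lines therefore stood above the 786-O libraries, and no test against 786-O is given here. 786-O is the parental line of 786-M1A but not of OS-LM1, whose parental line is not in the series. CYTIP, a cytohesin-binding protein, had 0.335 and 0.399 CPM in OS-LM1, against 64.4 and 61.1 CPM in 786-M1A, a log2 fold change of -7.43 ± 0.17, and 0.278 and 0.26 CPM in 786-O. OS-LM1 and 786-O were alike in having almost none of it, and 786-M1A was the only line of the 3 with more than 1 CPM. PTHLH, parathyroid hormone-related protein, known for bone resorption in metastasis, had 316 and 286 CPM in OS-LM1, against 45.8 and 47.4 CPM in 786-M1A, with 9.13 and 9.75 CPM in 786-O. MMP2, a gelatinase, had 62.5 and 61.6 CPM in OS-LM1, against 548 and 520.2 CPM in 786-M1A, with 26.4 and 26.8 CPM in 786-O. TNFSF10, the death ligand TRAIL, was lower at 161 and 140.1 CPM in OS-LM1, against 340 and 345 CPM in 786-M1A. CXCR4 was called higher without OS-LM1 replicate 1, with a log2 fold change of 1.08 and an adjusted p of 0.00354, and with upper-quartile factors (0.0272) and a minimum count of 50 (0.0487).

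Transcripts of epithelial junctions were mostly higher in OS-LM1. JUP, plakoglobin, had 105 and 114 CPM in OS-LM1, against 0.474 and 0.573 CPM in 786-M1A, a log2 fold change of 7.71 ± 0.17. DSP, desmoplakin, had 15.1 and 11.2 CPM in OS-LM1, against 0 and 0.0882 CPM in 786-M1A, and CLDN7, a tight junction claudin, had 4.62 and 5.99 CPM in OS-LM1, against 0.0206 and 0.0661 CPM in 786-M1A. CDH1, E-cadherin, had 10.1 and 7.75 CPM in OS-LM1, against 1.13 and 1.04 CPM in 786-M1A, low in both lines but without overlap. EPCAM, an epithelial adhesion molecule, went the other way with 0.335 and 0.627 CPM in OS-LM1, against 2.95 and 3.39 CPM in 786-M1A. KRT18, a keratin of simple epithelia, was not called at 158 and 172 CPM in OS-LM1, against 179.6 and 172 CPM in 786-M1A. Of the list, 17 of 26 tested members were called higher and 4 lower, with a median log2 fold change of 1.46 (0.82 to 1.71 over the alternatives). Members called lower came to 2 with upper-quartile factors and without 786-M1A replicate 1 and without 786-M1A replicate 2.

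Mesenchymal genes were present in both lines. VIM, vimentin, had 5441 and 5194 CPM in OS-LM1, against 8074 and 7986 CPM in 786-M1A, a log2 fold change of -0.59 ± 0.09. CDH2, N-cadherin, was lower at 355 and 212 CPM in OS-LM1, against 618 and 644 CPM in 786-M1A, and TGFBI, a TGF-beta-induced matrix protein, was lower at 3224 and 2567 CPM in OS-LM1, against 9695 and 9663 CPM in 786-M1A. In contrast, TAGLN and ACTA2, contractile proteins of smooth muscle, were higher, TAGLN at 36.8 and 35.9 CPM in OS-LM1, against 1.05 and 1.52 CPM in 786-M1A and ACTA2 at 45.7 and 47.3 CPM in OS-LM1, against 10.2 and 10.4 CPM in 786-M1A. CDH11, a mesenchymal cadherin, had 5.18 and 3.02 CPM in OS-LM1, against 0 counts in 786-M1A, at least 135-fold higher. The epithelial list leaned higher in OS-LM1 and the mesenchymal list slightly lower, and each had members called in both directions. Of the mesenchymal list, 5 of 17 tested members were called higher and 8 lower, with a median log2 fold change of -0.25 (-0.55 to 0.00 over the alternatives). Calls lower numbered 5 without 786-M1A replicate 2.

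Basement membrane collagens differed in both directions. COL4A1, of the common type IV network, had 2.2 and 1.54 CPM in OS-LM1, against 369.9 and 387 CPM in 786-M1A, and COL4A2, its partner, had 14.8 and 15.6 CPM in OS-LM1, against 531 and 531 CPM in 786-M1A. COL4A5 and COL4A6, chains of the other networks, were higher: COL4A5 had 70.6 and 77.1 CPM in OS-LM1, against 0.0824 and 0.132 CPM in 786-M1A and COL4A6 had 14 and 12.4 CPM in OS-LM1, against 0 counts in 786-M1A. Each pair lies head to head in the genome, and within each pair both members moved the same way. In 786-O, COL4A1 had 1028 and 988 CPM and COL4A5 had 33.6 and 33.3 CPM, so COL4A5 was low in 786-M1A alone. COL6A3, a microfibrillar collagen, had 2.53 and 1.54 CPM in OS-LM1, against 1156 and 1230.2 CPM in 786-M1A, a log2 fold change of -9.14 ± 0.21, with 45.5 and 42.5 CPM in 786-O. COL5A2, a fibrillar chain, was higher at 124 and 86.8 CPM in OS-LM1, against 6.04 and 5.84 CPM in 786-M1A. Of the list, 12 of 21 tested members were called higher and 6 lower, with a median log2 fold change of 0.98 (0.02 to 1.24 over the alternatives). The collagen median was 0.02 with no filter and 0.16 with limma on log2(TPM + 1).

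Receptors and proteases of the matrix differed one by one. LAMB3, a laminin beta chain, was higher at 272 and 229 CPM in OS-LM1, against 46.2 and 44.6 CPM in 786-M1A, while LAMA3, an alpha chain, was lower at 42.9 and 42.2 CPM in OS-LM1, against 107 and 112 CPM in 786-M1A. ITGB5, the beta subunit of the vitronectin receptor, was lower at 113 and 97.8 CPM in OS-LM1, against 351 and 334 CPM in 786-M1A, and ITGB1, the common beta subunit, was not called at 2486 and 1689 CPM in OS-LM1, against 1975 and 2094 CPM in 786-M1A. MMP7, matrilysin, was higher at 11.6 and 12.9 CPM in OS-LM1, against 0.309 and 0.353 CPM in 786-M1A, as was F3, tissue factor, at 1602 and 1554 CPM in OS-LM1, against 372 and 384 CPM in 786-M1A. ADAMTS1, a secreted protease, was lower at 33.9 and 21.4 CPM in OS-LM1, against 196 and 189 CPM in 786-M1A. Of the integrins and laminins, 9 of 25 tested members were called higher and 7 lower, with a median log2 fold change of 0.36 (0.00 to 0.78 over the alternatives). That median was 0 without OS-LM1 replicate 1 and 0.63 without OS-LM1 replicate 2. The count higher was 16 with a gene-length term. In the alternatives the lower members were 11 without OS-LM1 replicate 1. Of the proteases, 10 of 23 tested members were called higher and 9 lower, with a median log2 fold change of -0.08 (-0.40 to 0.28 over the alternatives), a median that was positive under 8 alternatives.

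Receptor tyrosine kinases differed in both directions, and INSR, given above, is one of them. PDGFRB, a receptor of platelet-derived growth factor usual on pericytes, had 0.261 and 0.456 CPM in OS-LM1, against 196 and 184 CPM in 786-M1A, a log2 fold change of -9.12 ± 0.19, with 2.93 and 3.2 CPM in 786-O. MET, the hepatocyte growth factor receptor, was lower at 454 and 283 CPM in OS-LM1, against 1511 and 1601 CPM in 786-M1A. EPHA4, an ephrin receptor, was lower at 1.12 and 1.14 CPM in OS-LM1, against 17.5 and 15 CPM in 786-M1A. FLT4, the receptor of lymphatic growth factors, was higher at 2.47 and 3 CPM in OS-LM1, against 0.81 and 0.787 CPM in 786-M1A, and MERTK, of the AXL family, was higher at 3.35 and 2.91 CPM in OS-LM1, against 1.11 and 0.97 CPM in 786-M1A. AXL itself was not called at 592 and 398 CPM in OS-LM1, against 592 and 572 CPM in 786-M1A. EGFR was not called either, with 264 and 78.8 CPM in OS-LM1, against 322 and 328 CPM in 786-M1A, and the OS-LM1 libraries lay far apart. Of the list, 14 of 29 tested members were called higher and 5 lower, with a median log2 fold change of 0.55 (0.23 to 0.94 over the alternatives). Among the 29, 1 had at most 3 counts in 786-M1A and in 786-O, so it passed the filter through OS-LM1 alone.

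Among secreted growth factors and their binding proteins, IGFBP3 stood high in both lines per transcript length, with a mean of 8725 TPM in OS-LM1 and 2098 TPM in 786-M1A. IGFBP3, the main carrier of insulin-like growth factors, had 10361 and 11537 CPM in OS-LM1, against 2486 and 2467 CPM in 786-M1A, a log2 fold change of 2.14 ± 0.10. IGFBP5 had 53.3 and 55.6 CPM in OS-LM1, against 0.577 and 0.441 CPM in 786-M1A and IGFBP4 had 98 and 101 CPM in OS-LM1, against 10.9 and 9.43 CPM in 786-M1A, both carriers too, while IGFBP1, induced by low insulin, was lower at 3.76 and 4.28 CPM in OS-LM1, against 108 and 100.1 CPM in 786-M1A. GDF15, a stress cytokine, was higher at 65.8 and 93.7 CPM in OS-LM1, against 8.92 and 8.31 CPM in 786-M1A. EREG, an EGF receptor ligand, was lower at 1.43 and 1.48 CPM in OS-LM1, against 71.5 and 77.8 CPM in 786-M1A, and INHBB, an activin subunit, was lower at 2.65 and 2.51 CPM in OS-LM1, against 115 and 108 CPM in 786-M1A. Of the list, 19 of 36 tested members were called higher and 13 lower, with a median log2 fold change of 0.59 (0.23 to 0.84 over the alternatives). Among the 36, 2 had at most 3 counts in 786-M1A and in 786-O, so they passed the filter through OS-LM1 alone.

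WNT pathway genes differed in both directions. WNT5A, the main non-canonical ligand, had 336 and 271 CPM in OS-LM1, against 9.79 and 9.7 CPM in 786-M1A, a log2 fold change of 4.96 ± 0.15, and WNT3 had 19.2 and 17.7 CPM in OS-LM1, against 0.577 and 0.375 CPM in 786-M1A. WNT7B, a ligand of kidney medulla development, was lower at 2.62 and 3.93 CPM in OS-LM1, against 46.3 and 43.7 CPM in 786-M1A. DKK3, a dickkopf family member, was lower at 1.53 and 0.912 CPM in OS-LM1, against 42.7 and 39.7 CPM in 786-M1A, and LRP5, a co-receptor, was not called at 78.9 and 70.2 CPM in OS-LM1, against 72.1 and 66.6 CPM in 786-M1A. Of the list, 12 of 27 tested members were called higher and 7 lower, with a median log2 fold change of 0.73 (0.19 to 0.99 over the alternatives). Among the 27, 2 had at most 3 counts in 786-M1A and in 786-O, so they passed the filter through OS-LM1 alone. JAG1, a NOTCH ligand, was higher at 772 and 641 CPM in OS-LM1, against 110.3 and 118 CPM in 786-M1A, and HES1, a NOTCH target, was higher at 27.6 and 35.9 CPM in OS-LM1, against 14.4 and 13.3 CPM in 786-M1A. The receptors NOTCH1 and NOTCH2 were lower, NOTCH2 at 277 and 162 CPM in OS-LM1, against 469 and 497 CPM in 786-M1A. Of the NOTCH and hedgehog list, 8 of 17 tested members were called higher and 3 lower, with a median log2 fold change of 0.87 (0.23 to 1.12 over the alternatives). Here 1 of the 17 passed the filter through OS-LM1 alone. The number lower was 5 without OS-LM1 replicate 1.

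Guidance molecules differed in both directions. ROBO1, a receptor of axon guidance, had 0.783 and 0.855 CPM in OS-LM1, against 48.7 and 47.3 CPM in 786-M1A, and its ligand SLIT2 had 0.0745 and 0.114 CPM in OS-LM1, against 3.85 and 4.12 CPM in 786-M1A. EFNB2, an ephrin ligand of vessels, had 1.83 and 2.22 CPM in OS-LM1, against 70.8 and 72.4 CPM in 786-M1A, and SEMA5A, a semaphorin, had 20.3 and 13.6 CPM in OS-LM1, against 181 and 184 CPM in 786-M1A. SEMA4D, a semaphorin with immune roles, was higher at 68 and 50.5 CPM in OS-LM1, against 13.3 and 12.8 CPM in 786-M1A, and its receptor PLXNB1 was higher at 82.4 and 109 CPM in OS-LM1, against 35.8 and 31.5 CPM in 786-M1A. Of the list, 16 of 31 tested members were called higher and 7 lower, with a median log2 fold change of 0.51 (0.19 to 0.80 over the alternatives). Neuronal genes were mostly lower. MAP1B, a microtubule protein, had 1.45 and 0.969 CPM in OS-LM1, against 238 and 258 CPM in 786-M1A, a log2 fold change of -7.63 ± 0.18, with 165 and 157 CPM in 786-O. L1CAM, an adhesion molecule of neurons and some carcinomas, was higher at 193 and 180.1 CPM in OS-LM1, against 11.1 and 10.2 CPM in 786-M1A, as was NRCAM, of the same family, at 134 and 88.9 CPM in OS-LM1, against 2.08 and 2.58 CPM in 786-M1A. Of the neuronal list, 5 of 23 tested members were called higher and 15 lower, with a median log2 fold change of -0.88 (-0.98 to -0.62 over the alternatives).

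Replication and mitosis genes were mostly lower in OS-LM1. MKI67, a marker of cycling cells, had 368 and 274 CPM in OS-LM1, against 942 and 1013 CPM in 786-M1A, a log2 fold change of -1.61 ± 0.15. MCM4, a helicase subunit, had 197 and 178 CPM in OS-LM1, against 587 and 587 CPM in 786-M1A, PLK1, a mitotic kinase, 75.6 and 58.8 CPM in OS-LM1, against 235 and 212 CPM in 786-M1A, and CCNE2, cyclin E2, 17 and 14.3 CPM in OS-LM1, against 51.6 and 54.9 CPM in 786-M1A. PCNA, the replication clamp, was higher at 494 and 452 CPM in OS-LM1, against 195 and 196 CPM in 786-M1A, and CCNB1, cyclin B1, was not called at 169 and 151 CPM in OS-LM1, against 153 and 151 CPM in 786-M1A. Of the list, 4 of 33 tested members were called higher and 25 lower, with a median log2 fold change of -0.76 (-0.88 to -0.52 over the alternatives). Members called higher came to 1 without 786-M1A replicate 2. CDK6, a G1 kinase, was lower at 279 and 136 CPM in OS-LM1, against 613 and 680.2 CPM in 786-M1A, and CDKN1B, its inhibitor p27, was higher at 53.4 and 50.7 CPM in OS-LM1, against 29 and 31.3 CPM in 786-M1A. The growth rates of the cultures were not given in the sources used here.

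EGR1, an immediate-early gene of the ERK pathway, was higher at 20.5 and 18 CPM in OS-LM1, against 2.66 and 2.71 CPM in 786-M1A, while the feedback-linked factor ETV5 was lower at 12 and 8.32 CPM in OS-LM1, against 35.7 and 35.2 CPM in 786-M1A. Of the ERK list, 12 of 26 tested members were called higher and 4 lower, with a median log2 fold change of 0.42 (0.20 to 0.76 over the alternatives). SMAD3, a mediator of TGF-beta signals, was higher at 946 and 861 CPM in OS-LM1, against 128 and 124 CPM in 786-M1A, and LTBP1, which binds latent TGF-beta, was lower at 5.55 and 3.82 CPM in OS-LM1, against 36.9 and 37.5 CPM in 786-M1A. Of the TGF-beta list, 4 of 23 tested members were called higher and 10 lower, with a median log2 fold change of -0.35 (-0.63 to -0.10 over the alternatives). Calls higher numbered 7 with a gene-length term. CYR61, a YAP target, was higher at 1335 and 1308 CPM in OS-LM1, against 485 and 476 CPM in 786-M1A, while CTGF, its relative, was lower at 35.6 and 25.4 CPM in OS-LM1, against 66.1 and 64.5 CPM in 786-M1A.

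Genes of sterol and fatty acid synthesis were mostly lower in OS-LM1. SQLE, squalene epoxidase, had 46.9 and 34 CPM in OS-LM1, against 159 and 158 CPM in 786-M1A, a log2 fold change of -1.97 ± 0.15, and MSMO1, a sterol oxidase, had 36.6 and 32.1 CPM in OS-LM1, against 109.9 and 111 CPM in 786-M1A. FADS2, a fatty acid desaturase, had 80.4 and 66.1 CPM in OS-LM1, against 228 and 218 CPM in 786-M1A, and ELOVL6, an elongase, had 32.8 and 25.7 CPM in OS-LM1, against 108 and 113 CPM in 786-M1A. SREBF1, a transcription factor of this pathway, was higher at 105 and 122 CPM in OS-LM1, against 24 and 20.7 CPM in 786-M1A, and its relative SREBF2 was not called at 135 and 120.1 CPM in OS-LM1, against 129.6 and 118 CPM in 786-M1A. Of the list, 4 of 27 tested members were called higher and 20 lower, with a median log2 fold change of -0.56 (-0.76 to -0.29 over the alternatives). The count higher was 2 without 786-M1A replicate 2. In the alternatives the lower members were 13 with upper-quartile factors and without 786-M1A replicate 1.

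Amino acid metabolism was divided. TRIB3 and DDIT4, targets of the stress factor ATF4, were higher, TRIB3 at 317 and 319 CPM in OS-LM1, against 60.4 and 57.9 CPM in 786-M1A and DDIT4 at 456 and 509 CPM in OS-LM1, against 135 and 125 CPM in 786-M1A. PSAT1, the enzyme after PHGDH in serine synthesis, was lower at 78.5 and 65.3 CPM in OS-LM1, against 139.7 and 149 CPM in 786-M1A, so the steps of that pathway did not move together. ASS1, of arginine synthesis, was lower at 0.671 and 0.456 CPM in OS-LM1, against 22.7 and 19.6 CPM in 786-M1A, with 2.04 and 1.92 CPM in 786-O. MTHFD2, a mitochondrial folate enzyme, was lower at 66.3 and 50.3 CPM in OS-LM1, against 165 and 175 CPM in 786-M1A. Of the list, 15 of 26 tested members were called higher and 7 lower, with a median log2 fold change of 0.48 (0.41 to 0.74 over the alternatives). Among the 26, 2 had at most 3 counts in 786-M1A and in 786-O, so they passed the filter through OS-LM1 alone.

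Glycolysis genes differed in both directions. GAPDH had 5181 and 5628 CPM in OS-LM1, against 3545 and 3469 CPM in 786-M1A and was higher, PFKL, liver phosphofructokinase, was lower at 68.5 and 69.4 CPM in OS-LM1, against 179 and 159 CPM in 786-M1A, and LDHA, lactate dehydrogenase A, was not called at 2448 and 1945 CPM in OS-LM1, against 2234 and 2256 CPM in 786-M1A. Of the list, 4 of 20 tested members were called higher and 8 lower, with a median log2 fold change of 0.07 (-0.23 to 0.31 over the alternatives). The number higher was 9 with upper-quartile factors, 12 without OS-LM1 replicate 2 and 8 with a gene-length term. PPARGC1A, a coactivator of mitochondrial genes, was higher at 6.63 and 4.79 CPM in OS-LM1, against 0.103 and 0.287 CPM in 786-M1A, with 13.4 and 14.6 CPM in 786-O. The iron-storage chains were higher, FTH1 at 4087 and 4069 CPM in OS-LM1, against 1101 and 1099 CPM in 786-M1A and FTL at 2559 and 2466 CPM in OS-LM1, against 959 and 900.4 CPM in 786-M1A.

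Redox and xenobiotic genes differed in both directions. ABCC2, an export pump of the proximal tubule, had 67.4 and 75.4 CPM in OS-LM1, against 2.82 and 2.82 CPM in 786-M1A, a log2 fold change of 4.66 ± 0.13. AKR1B1, aldose reductase, had 3202 and 3448 CPM in OS-LM1, against 668 and 621 CPM in 786-M1A. NQO1 and TXNRD1, abundant targets of NRF2, were not called, NQO1 at 274 and 232 CPM in OS-LM1, against 278 and 273 CPM in 786-M1A. Of the NRF2 list, 11 of 25 tested members were called higher and 7 lower, with a median log2 fold change of 0.22 (0.11 to 0.48 over the alternatives). UGT2B7, a glucuronidating enzyme of liver and kidney, had 35.2 and 32 CPM in OS-LM1, against 0.247 and 0.19 CPM in 786-M1A, a log2 fold change of 7.21 ± 0.19. Of the drug and retinoid metabolism list, 7 of 17 tested members were called higher and 7 lower, with a median log2 fold change of 0.24 (0.08 to 0.49 over the alternatives). Metallothioneins, which bind zinc and copper, were split: MT1E had 2 expected counts in OS-LM1, with 0.0533 and 0.057 CPM in OS-LM1, against 113 and 106 CPM in 786-M1A, while MT2A was higher at 368 and 485 CPM in OS-LM1, against 226 and 212 CPM in 786-M1A. Of 7 tested metallothioneins 2 were called higher and 3 lower. Their sequences are close, so reads may be shared among copies.

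Several abundant heat-shock chaperones were lower in OS-LM1. HSP90AA1 had 850.3 and 492 CPM in OS-LM1, against 2604 and 2741 CPM in 786-M1A, HSPA8 had 937 and 424 CPM in OS-LM1, against 2594 and 2650.1 CPM in 786-M1A, and HSPD1, of the mitochondria, had 521 and 441 CPM in OS-LM1, against 1588 and 1690 CPM in 786-M1A. The OS-LM1 libraries lay apart from each other in HSPA8, with replicate 2 the lower. CRYAB, a small heat-shock protein, was higher at 73.6 and 67.5 CPM in OS-LM1, against 6.8 and 7.18 CPM in 786-M1A. Of the list, 9 of 28 tested members were called higher and 14 lower, with a median log2 fold change of -0.39 (-0.65 to -0.14 over the alternatives). Members called higher came to 5 without 786-M1A replicate 1.

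Differences ran along chromosomes. By the order of genes in RefSeq (names and order only), the median log2 fold change was 0.65 on chromosome 20, 0.62 on chromosome 15, 0.55 on chromosome 13 and 0.44 on chromosome 19. It was -0.65 on chromosome 8, -0.53 on chromosome 4 and -0.5 on chromosome 9. On chromosome 19, 47.1% of tested genes were called higher and 27.0% lower, and on chromosome 8, 22.0% higher and 53.9% lower. Medians were also taken in 1471 overlapping windows of 50 neighbouring genes, of which 201 were above 0.5 and 238 below -0.5. The highest median was 1.74, between PSG1 and APOC1 on chromosome 19, where 44 genes were called higher. The lowest was -1.56, between BAALC and FAM91A1 on chromosome 8, where 7 were called higher and 36 lower. Ribosomal protein genes leaned the same way as their chromosome on chromosomes 19 and 8. On chromosome 19, 6 of 7 listed members were higher, with 1155 and 1456 CPM in OS-LM1, against 373 and 345 CPM in 786-M1A for RPS19, and on chromosome 8 all 4 were lower, with 558 and 491 CPM in OS-LM1, against 1252 and 1269 CPM in 786-M1A for RPL7. Outside chromosomes 19, 8, 20 and 15, 14 of 29 listed members were higher and 3 lower. Replication and mitosis genes did not follow chromosome 20, where 3 of 4 listed members were lower. Of the whole ribosomal list, 22 of 42 tested members were called higher and 7 lower, with a median log2 fold change of 0.29 (0.06 to 0.56 over the alternatives). Calls lower numbered 14 without OS-LM1 replicate 2 and 16 with a gene-length term. Copy number was not measured in these files, and its part in these differences was not tested.

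**Figure D4:**
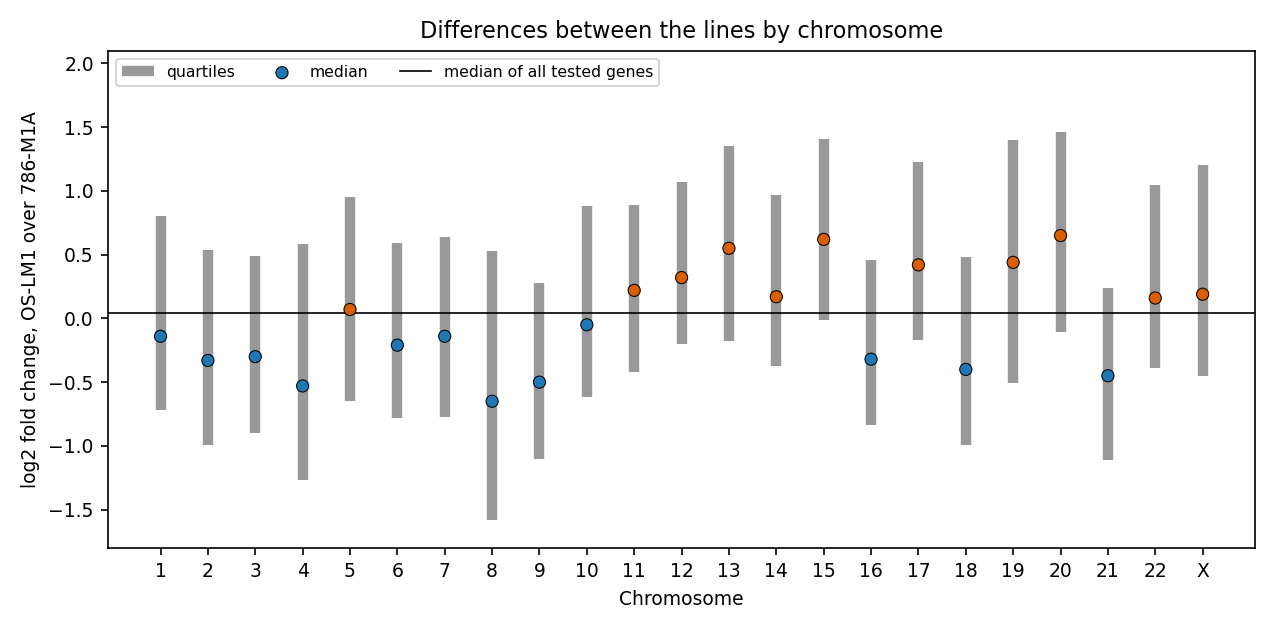
Log2 fold change of OS-LM1 over 786-M1A (vertical axis) for the tested genes of each chromosome (horizontal axis), as median (point) and quartiles (bar), with the line at the median of all tested genes, 0.04. Chromosomes 20, 15, 13 and 19 stand highest and chromosomes 8, 4 and 9 lowest.

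Several germline genes of the X chromosome were expressed in OS-LM1 and not in 786-M1A. MAGEA12 had 9.13 and 8.45 CPM in OS-LM1, against 0 counts in 786-M1A, at least 277-fold higher, and MAGEA3 had 5.24 and 4.93 CPM in OS-LM1, against 0 counts in 786-M1A, at least 160.1-fold higher; CSAG1, beside them, had 6.37 and 7.64 CPM in OS-LM1, against 0 counts in 786-M1A. PAGE5, of another family, had 2.19 and 1.87 CPM in OS-LM1, against 0 counts in 786-M1A. PRAME, an antigen of many tumours, was not called at 29.7 and 29.2 CPM in OS-LM1, against 35.3 and 31.1 CPM in 786-M1A. Of 36 members of the cancer-testis list in the files 18 were tested, and 6 of these had at most 3 counts in 786-M1A and in 786-O, so that they passed the filter on low counts through OS-LM1 alone and the share called higher is not read as a result. Close copies may share reads. NDN, an imprinted gene, was off in OS-LM1 with 0 counts in OS-LM1, against 12.4 and 11.7 CPM in 786-M1A, at least 178-fold lower. PEG10, another imprinted gene, was lower at 772 and 466 CPM in OS-LM1, against 1578 and 1608 CPM in 786-M1A, and PLAGL1 was higher at 83.3 and 101 CPM in OS-LM1, against 39.2 and 37.6 CPM in 786-M1A. Of the imprinted list, 10 of 19 tested members were called higher and 4 lower, with a median log2 fold change of 0.78 (0.18 to 1.08 over the alternatives). HOX genes, which keep positional identity, gave 10 called higher and 11 lower of 33 tested, with a median log2 fold change of 0.07 (-0.09 to 0.33 over the alternatives), with HOXC10 higher at 33.8 and 29.8 CPM in OS-LM1, against 3.75 and 3.61 CPM in 786-M1A and HOXB9 lower at 9.43 and 10.6 CPM in OS-LM1, against 36.2 and 34.5 CPM in 786-M1A. The count lower was 7 with upper-quartile factors.

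**Figure D5:**
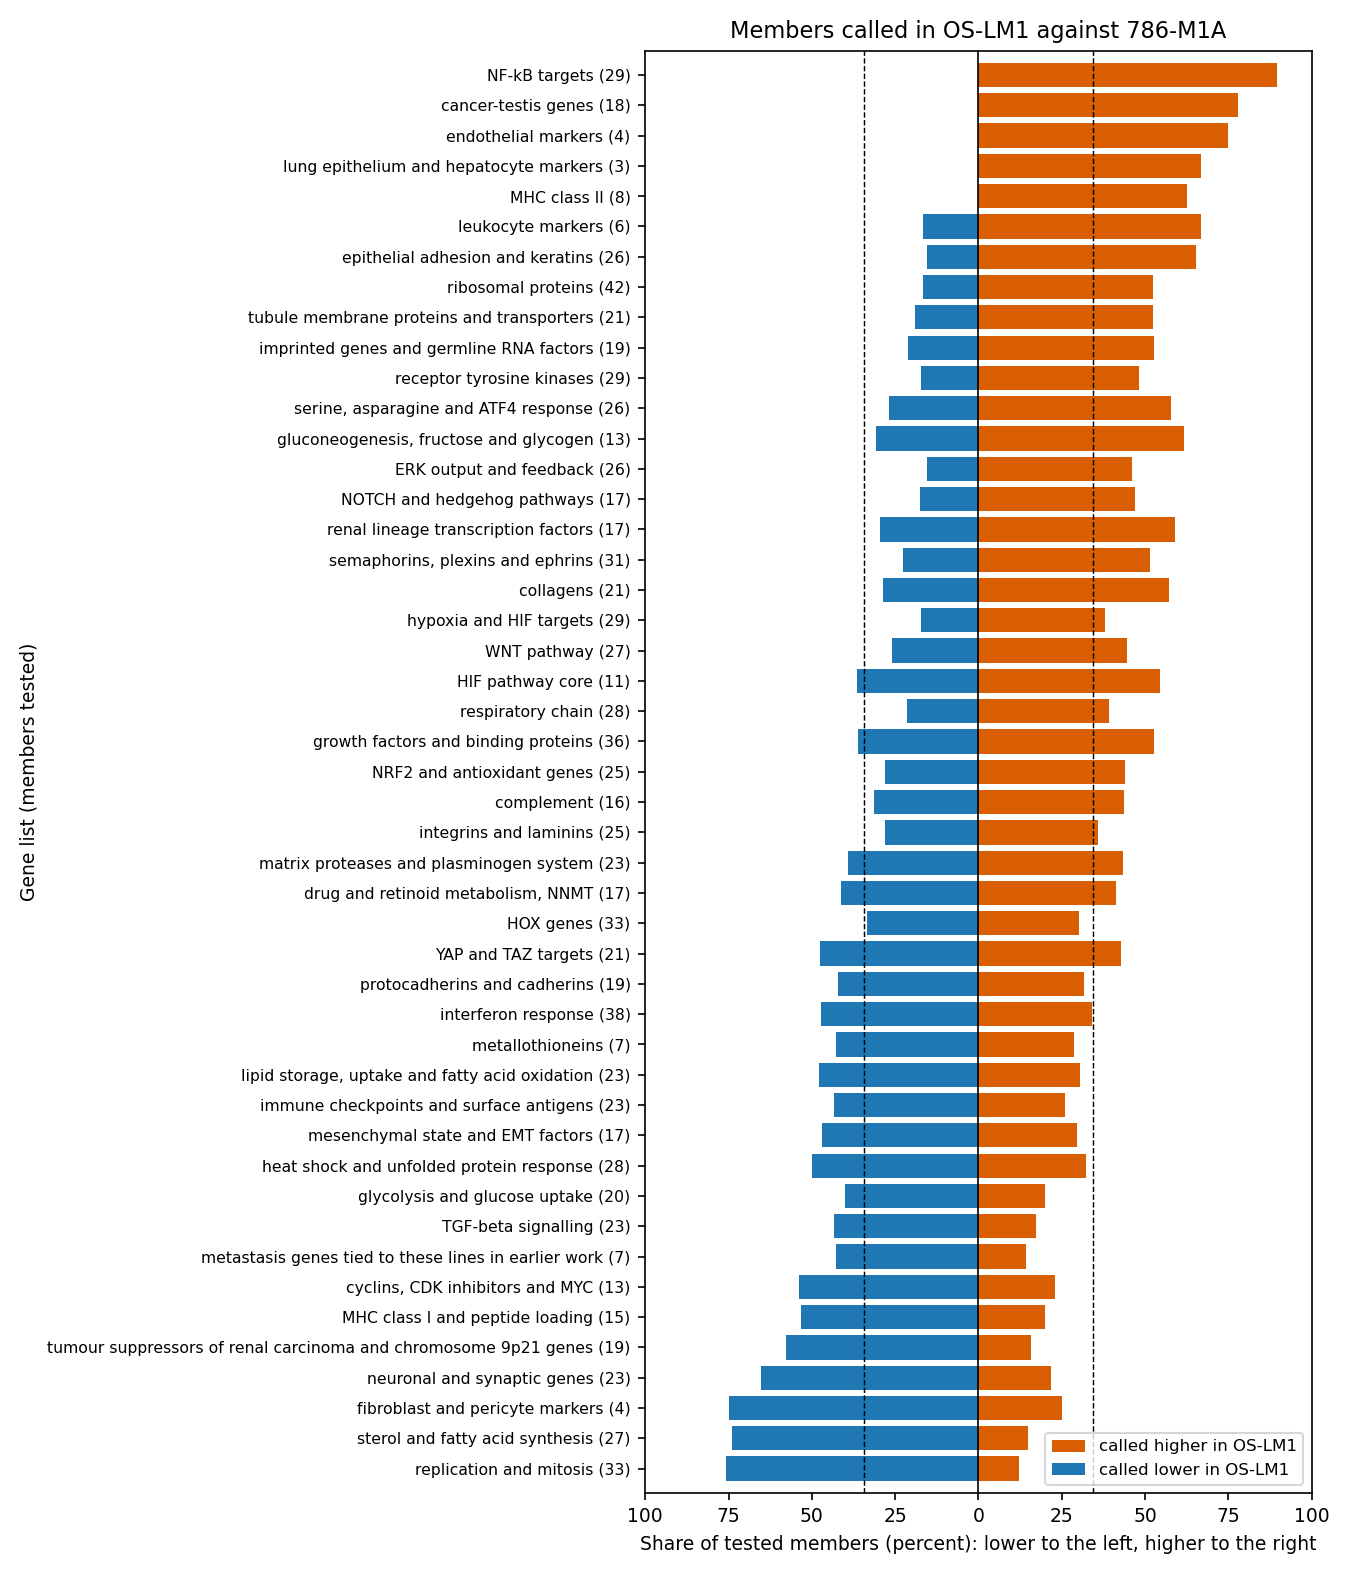
Share of tested members (horizontal axis, percent) called higher in OS-LM1 (orange, to the right) and lower (blue, to the left) for 47 of the 48 gene lists, with the number tested in brackets and dashed lines at the 34.4% and 34.3% of all tested genes. The NF-kB list reaches farthest to the right among lists with at least 20 tested members, and replication and mitosis and sterol and fatty acid synthesis farthest to the left.

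Against this background some abundant genes were level. YWHAE, HMGN2, EEF1G and TAGLN2 were named because their differences were among the smallest, so their closeness was fixed by that choice. Among genes with at least 500 CPM in both lines, YWHAE, a 14-3-3 protein, had 609.9 and 574 CPM in OS-LM1, against 578 and 594 CPM in 786-M1A, a log2 fold change of 0.01 ± 0.10. HMGN2, a nucleosome-binding protein, had 795 and 808 CPM in OS-LM1, against 778 and 803 CPM in 786-M1A, and EEF1G, an elongation factor subunit, had 951 and 863 CPM in OS-LM1, against 893 and 883 CPM in 786-M1A. TAGLN2, an actin-binding protein, had 885 and 853 CPM in OS-LM1, against 899.5 and 864 CPM in 786-M1A. The cytoskeletal actin ACTB was not called, with 7405 and 8028 CPM in OS-LM1, against 7003 and 6805 CPM in 786-M1A, while its near-copy ACTG1 was lower at 4770.5 and 4449 CPM in OS-LM1, against 6729 and 6442 CPM in 786-M1A. A p above the threshold does not show that such genes were equal, and their closeness holds on the TMM scale.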

How the data were processed

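Per the labels' protocols, poly(A) RNA from each culture was made into dUTP-stranded libraries, and per the submitters' processing notes Bowtie2, RSEM and the hg19 build were used, with no versions given. The authors deposited RSEM expected counts and TPM values for 25343 genes in each library, and no source used here gives whether counting used strand.

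Expected counts were rounded to whole numbers. The 6 libraries of the unmodified lines were fitted in edgeR 4.0.16 (R 4.3.3) with the robust quasi-likelihood test, TMM scaling and a filterByExpr limit of 10 counts. The contrast was OS-LM1 minus 786-M1A, p-values were Benjamini-Hochberg adjusted over 16354 genes, and the standard error was the fold change divided by the root of the F statistic. Per-length levels are means of the deposited TPM. The procedure was tested on simulated data in which few genes differed and none followed gene length. That setting is unlike these lines, so the simulation says nothing about scaling between them.

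Replicate numbers were not used as pairs: deviations of same-numbered libraries from their line means correlated at -0.406 between OS-LM1 and 786-M1A. Genes with at most 3 expected counts over a line get a fold at a floor of 3 counts or a ratio with an exact 95% counting interval, and both cover counting error only.

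The comparison and the 48 gene lists were chosen with earlier results of these data known. Named genes are 12 fixed genes, the 12 largest rises and falls with a mean of at least 10 CPM in one line, the 6 highest genes detected in one line only, up to 4 called members a direction and 2 uncalled members of each list, the 10 most abundant genes of each line by TPM, and the 10 abundant genes with the smallest difference. Genes named outside that rule are marked as such, except markers described as untested and genes that bound a chromosome window. Gene order and promoters came from RefSeq (GRCh38.p14), where 15802 of the tested genes matched by symbol, and no coordinates of the authors' build are given. The alternatives were DESeq2 1.42.0, other scaling factors, other filters, limma 3.58.1 on log2(TPM + 1) and log2(TPM + 0.1), the 4 libraries alone, a replicate block, glmTreat and leaving out each library. A gene-length term, an offset per library fitted along annotated length, and a crossed block were added after the data were seen. The 16 CRISPRi libraries were not analysed here, and some genes and 1 gene list are not reported here. Figures were drawn with matplotlib 3.10.9.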

Additional observations from a re-analysis of the deposited data

How the results depend on the processing

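The total of 11232 called genes ranged between 9088 and 11957 when 1 library was left out, and between 10185 and 11386 under DESeq2, other scaling factors, other filters, limma on log2 TPM and the 4 libraries alone. Those totals do not say which genes. Testing against a log2 fold change of 1 with glmTreat, a stricter null by construction, left 3826 genes, 2339 higher and 1487 lower, with 61.1% of calls higher against 50.1% in the main test. Upper-quartile factors moved that share to 62.3%; the cause was not tested. The numbers of genes in 1 line only fell by construction with stricter limits: at 0 counts in the other line there were 46 for OS-LM1 and 21 for 786-M1A, and at 20 CPM there were 22 and 11. Leaving out 1 library gave 71 to 109 for OS-LM1 and 46 to 71 for 786-M1A.

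With a replicate block 10716 genes were called, 5338 higher and 5378 lower. The numbers pair nothing in the labels, and with OS-LM1 numbers crossed the block gave 11237 calls. Of 217 named genes with a test, 167 kept their direction and side of the threshold under all 18 alternatives; 22 calls were lost with glmTreat and 0 under the others where the gene was tested. Reversals concerned genes near 0 that were not called. ITGB1, LDHA and SLC2A1 were at -0.28, -0.22 and -0.22 without OS-LM1 replicate 1, and at 0.29, 0.12 and 0.15 without OS-LM1 replicate 2; SLC2A1 was at 0.25 with the gene-length term, and TAGLN2 was at 0.24 with upper-quartile factors; the cause was not tested. The OS-LM1 libraries are the shallower, so low genes called off in OS-LM1 rest on fewer reads than those called off in 786-M1A.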
